A study of Mus musculus with 6 samples.

Results

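Bulk cerebellar RNA sequencing was used here to follow the mouse Fc receptor genes. *Fcgr1*, *Fcgr2b*, *Fcgr3* and *Fcgr4* encode the receptors for the constant region of IgG, and *Fcer1g* encodes the signaling chain shared by the activating ones. The others are *Fcgrt*, which encodes the neonatal receptor FcRn, and the Fc receptor-like gene *Fcrls*. The 7 genes were taken by symbol from the 53746 genes of the deposited count table, and 6 of them had enough counts to be tested. Cerebella came from 3 N153SLSL/LSLPcp2-cre mice (Pcp2-cre) and 3 N153SLSL/LSL mice (control), all 2 months old, with mice 1 and 2 of each genotype labelled male and mouse 3 female. All 6 mice were homozygous for a *Sting1* N153S knockin held silent by a LoxP-Stop-LoxP cassette, and the *Pcp2-cre* transgene, which drives Cre in Purkinje cells, was the difference between the genotypes. Each library was 1 mouse, and the n = 3 per genotype counts mice.

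Fc gamma receptors let myeloid cells respond to antibody-coated targets. The activating receptors encoded by *Fcgr1*, *Fcgr3* and *Fcgr4* signal through the immunoreceptor tyrosine-based activation motif (ITAM) of the common gamma chain, the product of *Fcer1g*, which recruits the kinase SYK, whereas the receptor encoded by *Fcgr2b* carries an inhibitory motif and recruits the phosphatase SHIP1. In healthy brain these transcripts are mainly those of microglia and of macrophages at the borders of the tissue. FcRn acts apart from this pathway, since it pairs with beta-2 microglobulin inside cells and returns IgG and albumin from endosomes to the surface.

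Total counts were between 6733178 and 10178218 per mouse, and 3 counts, used here as the limit of detection, equalled 0.297 to 0.447 CPM (counts scaled to library size, with TMM), which covers counting error only. *Sting1*, the engineered gene, had 23.2 to 27.2 CPM in control mice and 34.2 to 44.4 CPM in mice with Pcp2-cre. Purkinje cell markers were abundant in every library, with a summed level of 5592 to 6145 CPM in control mice and 2978 to 3276 CPM with Pcp2-cre. Choroid plexus transcripts set control mice 1 and 2 apart from the other 4 libraries: their summed level was 779 and 1206 CPM in these mice, 31.1 CPM in control mouse 3, and 22.3 to 83.7 CPM in Pcp2-cre mice. Genes were called where the p of edgeR's quasi-likelihood test, adjusted by Benjamini-Hochberg over the 16961 genes tested, did not exceed 0.05 and the log2 fold change was 0.5 or more in either direction.

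The genes lie on 3 chromosomes of the mouse genome (GRCm39, Gencode M39). On chromosome 1, *Fcgr2b* (chr1:170786186-170804177, reverse strand), *Fcgr4* (chr1:170846466-170857330, forward strand), *Fcgr3* (chr1:170878738-170893549, reverse strand) and *Fcer1g* (chr1:171057141-171062219, reverse strand) fall within 276 kb. *Fcrls* (chr3:87156616-87181827) and *Fcgr1* (chr3:96190225-96201338) are on the reverse strand of chromosome 3, and *Fcgrt* (chr7:44742412-44756819) is on the reverse strand of chromosome 7. The 120 bases upstream of the annotated start are shown for *Fcer1g*, which differed between the genotypes, and for *Fcgr1*, which was not called. Neither window overlaps an annotated exon, nor do those of *Fcgr4* and *Fcgrt*, which are not shown. Capitals mark matches on either strand to GAGGAA or to TTCNNNGAA, the GAS element bound by STAT factors. GAGGAA is a form of the site bound by the myeloid factor PU.1 and is called the PU.1 core here. Other forms of that site were not searched.
Fcer1g, chr1:171062220-171062339, reverse strand: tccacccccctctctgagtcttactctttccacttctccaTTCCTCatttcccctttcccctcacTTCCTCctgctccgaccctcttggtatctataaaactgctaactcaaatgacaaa
Fcgr1, chr3:96201339-96201458, reverse strand: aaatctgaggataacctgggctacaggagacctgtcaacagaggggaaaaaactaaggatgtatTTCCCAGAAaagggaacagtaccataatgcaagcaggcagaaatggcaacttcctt
The *Fcer1g* window holds 2 matches to the PU.1 core, both read from the opposite strand, and the *Fcgr1* window holds 1 match to the GAS element. Over the 250 bases upstream of each start, the PU.1 core was present at *Fcer1g* and *Fcrls*, and at 23.0% of 13708 protein-coding genes that were tested or are among the 7. The GAS element was present at *Fcgr1* and *Fcgr4* (6.43% of the same windows), and the ISRE core GAAANNGAA at *Fcgr4* alone of the 7 genes (6.92%). No match was found at *Fcgr2b*, *Fcgr3* or *Fcgrt* in these windows. The starts used for these genes and for *Fcrls* lie inside the annotated gene. Of the 120 bases upstream, annotated exons covered 120 at *Fcgr2b*, 89 at *Fcgr3* and 83 at *Fcrls*. The lack of a match at the former genes, and the match at *Fcrls*, are therefore not read as properties of their promoters.

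Among the activating receptors, *Fcgr3* rose in Pcp2-cre cerebella, whereas *Fcgr1* was not called. *Fcgr3* (ENSMUSG00000059498), the low-affinity activating receptor, had 18, 9 and 22 counts in control mice 1 to 3 and 61, 71 and 74 counts in Pcp2-cre mice 1 to 3. Every Pcp2-cre mouse lay above every control, at 9.06 ± 1.64 CPM (SD, n = 3) against 1.92 ± 0.505 CPM. The difference was 4.55-fold (95% confidence interval 3.29 to 6.27, log2 fold change 2.18, standard error 0.223, edgeR adjusted p = 5.12e-07). *Fcgr1* (ENSMUSG00000015947), the high-affinity receptor, had 23, 29 and 28 counts in control and 24, 21 and 25 counts in Pcp2-cre mice, and the genotypes overlapped. Its level was 3.32 ± 0.865 CPM in control mice and 3.09 ± 0.640 CPM with Pcp2-cre, with a log2 fold change of -0.09 and a 95% interval of -0.61 to 0.43, so a change in either direction of the size seen for *Fcgr3* lay outside the interval. Its edgeR adjusted p was 0.911.

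*Fcgr4* (ENSMUSG00000059089), the remaining activating receptor, was close to undetected in both genotypes. It had 0, 0 and 1 counts in control and 2, 1 and 3 counts in Pcp2-cre mice, at or under the limit of detection in all 6 libraries. The gene was not tested and no fold change is given.

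The shared signaling chain rose with *Fcgr3*. *Fcer1g* (ENSMUSG00000058715) had 10, 19 and 22 counts in control and 55, 65 and 62 counts in Pcp2-cre mice. The genotypes did not overlap, and the lowest Pcp2-cre mouse (7.24 CPM) was well above the highest control (2.83 CPM). Mean levels were 2.09 ± 0.795 and 7.97 ± 1.05 CPM, a 3.83-fold difference (95% confidence interval 2.73 to 5.38, log2 fold change 1.94, standard error 0.234, edgeR adjusted p = 5.62e-06).

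The inhibitory receptor was also higher. *Fcgr2b* (ENSMUSG00000026656) had 10, 13 and 23 counts in control and 60, 56 and 50 counts in Pcp2-cre mice, with no overlap. It went from 1.82 ± 0.525 CPM to 7.25 ± 0.730 CPM, 3.89-fold higher (95% confidence interval 2.80 to 5.41, log2 fold change 1.96, standard error 0.228, edgeR adjusted p = 3.36e-06). *Fcgr2b* and *Fcgr3* are close relatives: 139 exonic 50-base stretches are identical between them, which is 2.67% of those of *Fcgr2b* and 5.34% of those of *Fcgr3*, and how reads from such stretches were assigned is not given in the sources used here. Exons of *Fcgr2b* also overlap the opposite-strand lncRNA *Gm38204* over 355 bases, and that lncRNA had 0 counts in all 6 mice. Stretches of *Fcgr2b* were shared with transcripts of 390 other genes in all, so that 9.97% of its 50-base stretches were not unique. For *Fcgr3* this was 8.65%, shared with 2 other genes, and there were none for *Fcer1g*, *Fcrls*, *Fcgr1* and *Fcgr4*.

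The largest difference among the 6 tested receptor genes was that of *Fcrls* (ENSMUSG00000015852, *Fcrl2* in Gencode M39), a scavenger receptor-like member of the family whose transcript marks microglia in mouse brain. It had 33, 24 and 33 counts in control and 196, 214 and 207 counts in Pcp2-cre mice. The 3 mice within each genotype lay close together, at 3.65 ± 0.429 CPM for control and 27.0 ± 3.15 CPM for Pcp2-cre, and the genotypes were far apart. This was a 7.39-fold difference (95% confidence interval 6.04 to 9.03, log2 fold change 2.89, standard error 0.139, edgeR adjusted p = 1.12e-11), and *Fcrls* had the eighth smallest p of all genes tested.

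*Fcgrt* (ENSMUSG00000003420), the FcRn heavy chain, was not called, and its difference had a narrow interval. It had 174, 165 and 240 counts in control and 165, 210 and 162 counts in Pcp2-cre mice. These corresponded to 23.4 ± 1.48 and 23.3 ± 1.38 CPM, with overlapping mice and a 95% interval of the log2 fold change of -0.19 to 0.19 (edgeR adjusted p = 1.0). Its light chain, *B2m*, which also serves MHC class I, rose from 50.2 ± 2.05 to 79.4 ± 6.56 CPM (log2 fold change 0.66, edgeR adjusted p = 2.01e-07).

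**Figure D1:**
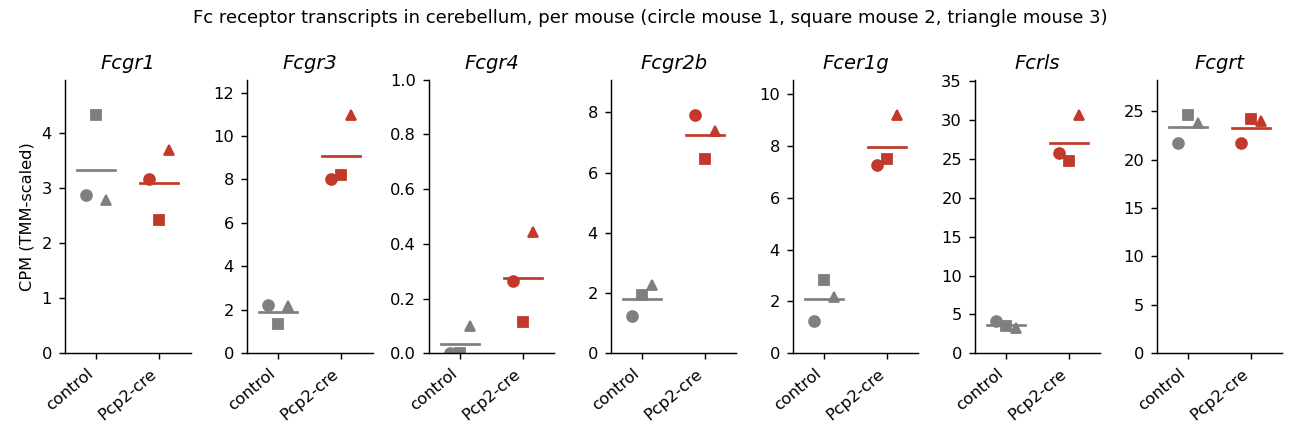
CPM of each of the 7 genes (y axes, each from 0) in every control (grey) and Pcp2-cre (red) mouse, with the mean as a line. *Fcgr3*, *Fcgr2b*, *Fcer1g* and *Fcrls* were 3.83- to 7.39-fold higher in Pcp2-cre mice without overlap, *Fcgr1* and *Fcgrt* overlapped, and *Fcgr4* stayed at or under 3 counts.

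In all, 4 of the 6 genes tested were called higher and none lower in Pcp2-cre mice, where 1.37% of all genes tested were called higher and 1.79% lower. Every Pcp2-cre mouse exceeded every control for *Fcgr2b*, *Fcgr3*, *Fcer1g* and *Fcrls*, a pattern held by 10.8% of all genes tested. *Fcgr4* was not tested and is left out, since control mouse 3 and Pcp2-cre mouse 2 both had 1 count. *Fcgr2b* and *Fcer1g* passed the filter on low counts only with the help of the Pcp2-cre mice, since 2 of 3 control mice reached its cutoff of 1.27 CPM. With a choroid plexus score as a covariate in the edgeR fit, the 4 called genes were still called, with log2 fold changes of 1.72 for *Fcgr2b*, 2.21 for *Fcgr3*, 2.02 for *Fcer1g* and 3.13 for *Fcrls* (highest adjusted p = 1.63e-04). Control mouse 3, the control whose choroid plexus level lay among those of the Pcp2-cre mice, was below every Pcp2-cre mouse for each of them. Within the males (2 against 2) the log2 difference was 2.03, 2.07, 1.83 and 2.64 for these 4 genes, and between the 1 female of each genotype it was 1.60, 2.20, 1.96 and 3.13. *Fcgr1* differed by -0.32 in the males and 0.38 in the females, with no test of the difference between sexes.

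Levels of different genes were compared as deposited FPKM, which scales fragments to gene length. These values do not follow from the counts by a fixed gene length. *Fcgr2b*, for example, was at 1.25 and 1.94 CPM but at 0.437 and 0.364 FPKM in control mice 1 and 2. Order and spread are therefore those of the FPKM values. In control cerebella *Fcgrt* was the most abundant at 11.2 ± 0.200 FPKM, followed by *Fcer1g* (2.52 ± 0.963), *Fcrls* (1.43 ± 0.136), *Fcgr3* (1.33 ± 0.187), *Fcgr1* (1.01 ± 0.209) and *Fcgr2b* (0.557 ± 0.273), and each gene from *Fcer1g* to *Fcgr1* overlapped the next in this order. In Pcp2-cre mice *Fcgrt* was at 11.5 ± 0.313 FPKM, *Fcrls* at 9.63 ± 1.14 and *Fcer1g* at 9.51 ± 0.300, the last 2 overlapping. *Fcgr3* (5.53 ± 0.0832), *Fcgr2b* (2.48 ± 0.228) and *Fcgr1* (1.0 ± 0.0457) then followed without overlap, so *Fcgr1* moved from above *Fcgr2b* in the control means to below it. *Fcgr4* was last in both genotypes, at 0.0194 and 0.136 FPKM.

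The composition of the IgG receptor transcripts was described by each gene's share of their summed FPKM. The shares rest on the deposited FPKM and were not computed from the counts. The summed FPKM of the 4 *Fcgr* genes was 2.67 to 3.14 in control and 8.79 to 9.50 in Pcp2-cre mice. *Fcgr1* made up 36.0%, 44.6% and 25.0% of that sum in control mice 1 to 3 and 11.0%, 10.8% and 11.0% in Pcp2-cre mice. *Fcgr3* made up 49.2%, 41.8% and 45.4% in control and 59.2%, 62.2% and 60.1% in Pcp2-cre mice. For both genes the genotypes did not overlap, and the two-sided exact permutation test gave p = 0.10, the smallest that 3 against 3 mice allow. The share of *Fcgr2b* overlapped, at 14.8%, 13.6% and 27.7% against 28.6%, 25.7% and 26.9% (exact permutation p = 0.30).

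**Figure D2:**
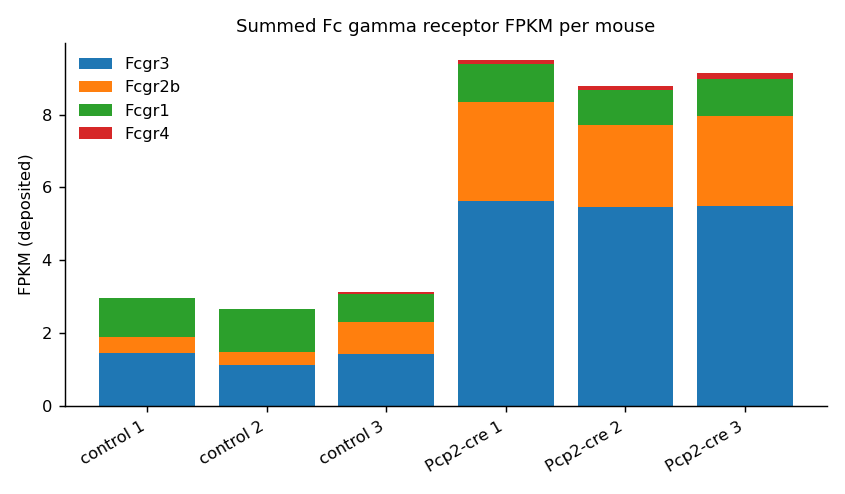
Deposited FPKM of *Fcgr3*, *Fcgr2b*, *Fcgr1* and *Fcgr4* stacked for each mouse (y axis from 0). The stacks reach 2.67 to 3.14 in control and 8.79 to 9.50 in Pcp2-cre mice, while the *Fcgr1* segment is of similar height in both.

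The balance of activating to inhibitory transcripts was compared as a difference of log2 CPM within each mouse. *Fcgr3* minus *Fcgr2b* was 0.74, -0.46 and -0.06 in control and 0.02, 0.33 and 0.55 in Pcp2-cre mice, a mean difference of 0.23 that lay within the spread of the mice (exact permutation p = 0.60). *Fcer1g* minus *Fcgr2b* differed by -0.02 (exact permutation p = 1.0). *Fcgr1* minus *Fcgr2b* fell by 1.97, from 0.79 ± 0.463 to -1.18 ± 0.199, with no overlap (exact permutation p = 0.10, the smallest possible). *Fcgr1* was not called on its own, so this fall restates the rise of *Fcgr2b* (log2 fold change 1.96). The corresponding difference for *Fcgr4* is not read, since its counts were at the limit of detection. Pairs with *Fcgr3* were added after the values had been seen. *Fcgr1* minus *Fcgr3* fell by 2.20 without overlap, close in size to the rise of *Fcgr3* itself (log2 fold change 2.18). *Fcrls* minus *Fcgr3* rose by 0.69 without overlap, whereas *Fcer1g* minus *Fcgr3* differed by -0.24 with overlap.

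Each tested receptor gene was also set against 10 microglial genes in the same library. Of these, 7 were called higher in Pcp2-cre mice, among them *Cx3cr1*, *Csf1r*, *Sall1* and *Gpr34*. *Tmem119* (log2 fold change 0.06), *P2ry12* (0.28) and *Siglech* (0.15) were not called. Of all genes tested, 1.37% were called higher. *P2ry13*, also called, passed the filter on low counts only with the help of the Pcp2-cre mice. The mean log2 CPM of the 10 genes was 0.92 higher in Pcp2-cre mice. In bulk tissue fewer or more cells of a type and less or more RNA per cell cannot be told apart. How far these markers account for the receptor levels was not tested beyond the comparison with them. Relative to this mean, *Fcrls* was 1.89 higher in Pcp2-cre than in control mice, *Fcgr3* 1.20, *Fcgr2b* 0.97 and *Fcer1g* 0.95 (log2 differences). *Fcgr1* differed by -1.0 and *Fcgrt* by -0.92, values close in size to the rise of the reference itself, since neither gene was called on its own. In all 6 cases the genotypes did not overlap and the exact permutation p was 0.10, the smallest possible.

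The size of these differences depended on the reference. All 6 broad myeloid genes examined (*Aif1*, *Itgam*, *Ptprc*, *Spi1*, *Cd68* and *Laptm5*) were called higher, with a mean log2 CPM 1.70 higher in Pcp2-cre mice. *Aif1*, *Itgam* and *Spi1* passed the filter on low counts only with the help of the Pcp2-cre mice. The number called is therefore not read against the 1.37% of all genes tested that were called higher. Against the mean of these 6 genes, *Fcrls* was 1.10 higher, *Fcgr3* 0.41, *Fcgr2b* 0.18 and *Fcer1g* 0.17, while *Fcgr1* differed by -1.79 and *Fcgrt* by -1.71. Against *Tmem119*, *P2ry12* and *Sall1* alone, whose mean rose by 0.40, *Fcrls* was 2.40 higher, *Fcgr3* 1.71, *Fcgr2b* 1.48 and *Fcer1g* 1.47, while *Fcgr1* differed by -0.49 and *Fcgrt* by -0.40.

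**Figure D3:**
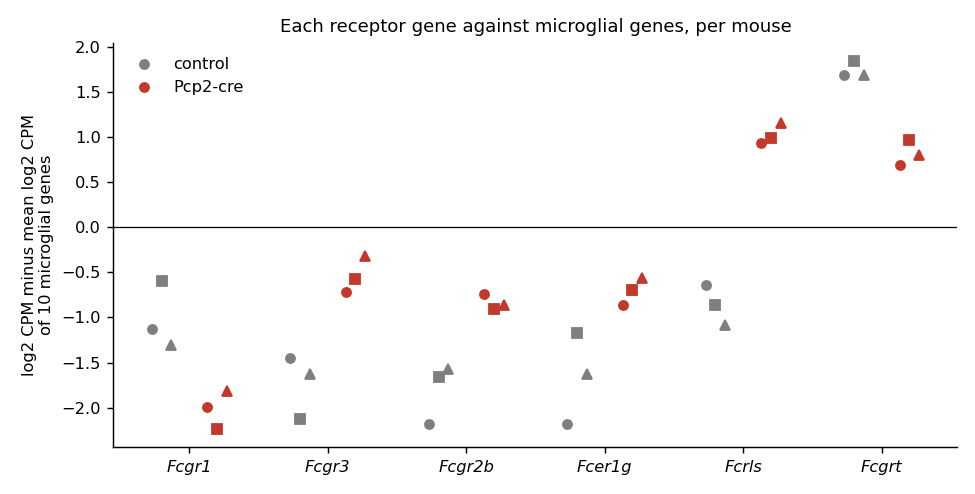
log2 CPM of each tested receptor gene minus the mean log2 CPM of 10 microglial genes (y axis), per control (grey) and Pcp2-cre (red) mouse. *Fcgr3*, *Fcgr2b*, *Fcer1g* and *Fcrls* lie higher in Pcp2-cre mice, and *Fcgr1* and *Fcgrt* lower.

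Markers of other cell types were examined in the same libraries. None of the 5 tested genes of border macrophages, among them *Mrc1* (log2 fold change 0.36) and *Cd163* (-0.06), was called, and the summed level of the 8 listed genes was 12.2 to 15.3 CPM in control mice against 13.8 to 18.6 CPM. No gene of the monocyte and neutrophil list passed the filter, and the 7 listed genes summed to 1.19 to 3.62 CPM in control mice against 1.48 to 4.87 CPM, with *Ly6g* at 0 counts throughout. B and plasma cell genes summed to at most 1.09 CPM and T and NK cell genes to at most 0.592 CPM in any mouse. Of the 5 mast cell genes, 4 were at or under 3 counts in every mouse, and *Kit*, which cerebellar neurons also express, was not called (-0.03). The 7 endothelial genes, in cells known to use FcRn, were all tested and none was called. Astrocyte genes differed among themselves, and the 4 listed genes summed to 1561 to 1639 CPM in control mice against 1876 to 1968 CPM. *Gfap* (log2 fold change 1.94) and *Aqp4* (0.51) were called higher. *Slc1a3* was lower with Pcp2-cre, and the genotypes did not overlap (-0.22, edgeR adjusted p = 9.95e-05). It was not called, since its fold change fell short of the 0.5 threshold. *Aldh1l1* (0.08) overlapped and was not called. The part of these other cell types in the receptor levels was not tested.

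Of 29 listed adaptors, kinases, effectors and inhibitors that act downstream of the receptors, 22 were tested, and 12 of these were called higher and none lower. Of the 12, 9 passed the filter on low counts only with the help of the Pcp2-cre mice, where they were high, so their number is not read against all genes. Among the 12 downstream genes that the control mice alone would have passed, 3 were called higher (*Tyrobp*, *Lat2* and *Inpp5d*), and the median log2 fold change was 0.13 against 0.0045 for all genes tested. With the ligands, the other Fc receptors and *B2m* included, 13 of 26 tested genes (of 56 listed) were called. Of the 13, 9 passed the filter only with the help of the Pcp2-cre mice. Where at least 10 counts were required in every mouse, 4 were called. *Tyrobp*, the ITAM adaptor DAP12 that works beside the gamma chain, had 16, 16 and 18 counts in control and 121, 110 and 114 counts in Pcp2-cre mice (log2 fold change 2.89, edgeR adjusted p = 8.14e-10). *Syk*, the kinase that binds both adaptors, had 6, 7 and 12 counts against 20, 29 and 17 (log2 fold change 1.49, edgeR adjusted p = 0.00217). The genotypes did not overlap for either gene. The kinases *Lyn* (0.17) and *Fyn* (0.03), which many other cells also express, were not called.

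Among the effectors, 7 of 11 tested genes were called higher. Of these, only *Lat2* would have passed the filter on the control mice alone. The count is therefore not read against the 1.37% of all genes tested that were called higher. *Blnk*, an adaptor best known from B cell receptor signaling, had 2, 1 and 2 counts in control and 26, 29 and 21 counts in Pcp2-cre mice (edgeR adjusted p = 4.36e-07), and no fold change is given against a group at the limit of detection. The others were the exchange factor *Vav1* (log2 fold change 1.97), the adaptors *Lcp2* (1.69), *Pik3ap1* (1.54) and *Lat2* (1.14), the kinase subunit *Pik3cg* (1.23) and the phospholipase *Plcg2* (1.12). *Card9* (0.24), *Pik3cd* (0.17), *Prkcd* (-0.0040) and *Gab2* (-0.08) were not called.

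Of the inhibitors of the pathway, 3 of 7 tested genes were called higher, and of these only *Inpp5d* would have passed the filter on the control mice alone. *Inpp5d*, which encodes SHIP1, rose from 4.98 ± 0.590 to 10.6 ± 1.24 CPM (log2 fold change 1.09, edgeR adjusted p = 9.13e-05). *Ptpn6*, which encodes the phosphatase SHP-1, had a log2 fold change of 2.06, and the inhibitory receptor *Lilrb4a* 2.89, with only 2, 1 and 7 counts in control and 30, 29 and 12 counts in Pcp2-cre mice. The remaining 4 were not called, from *Dok1* (1.31, edgeR adjusted p = 0.0783) to *Cbl* (-0.06).

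**Figure D4:**
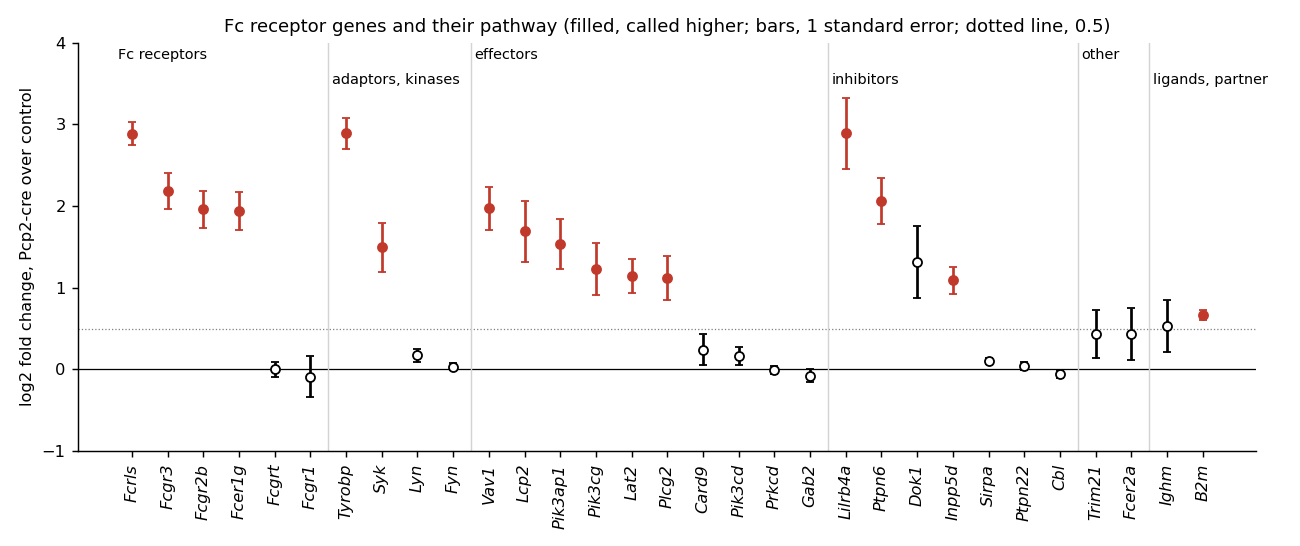
log2 fold change of Pcp2-cre over control (y axis, bars 1 standard error) for the 6 tested receptor genes and the tested pathway genes, grouped by role, without *Blnk*, whose control mice were at the limit of detection. Filled points were called higher, among them 4 receptor genes, and no gene was called lower.

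Transcripts of the ligands stayed near the limit of detection. Of 14 genes for immunoglobulin chains and albumin, 5 had 0 counts in every mouse, 11 were at or under 3 counts throughout, and 1, the IgM heavy chain *Ighm*, was tested (log2 fold change 0.53, edgeR adjusted p = 0.419). The kappa light chain *Igkc* had 0, 3 and 1 counts in control and 4, 1 and 2 counts in Pcp2-cre mice. Antibody protein that reached the tissue from blood was not measured. The other Fc receptor genes gave a similar picture, with 5 of 12 at 0 counts in every mouse, among them the IgE receptor chains *Fcer1a* and *Ms4a2*, and 2 tested and not called, *Fcer2a* (0.43) and the cytosolic antibody receptor *Trim21* (0.43).

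None of the other tested genes between the receptor loci on chromosome 1 was called. From *Fcgr2b* to *Fcer1g* the annotation holds 22 genes, 11 of them protein-coding. The 5 that were tested beside the receptor genes, *Cfap126*, *Sdhc*, *Pcp4l1*, *Nr1i3* and *Tomm40l*, had log2 fold changes of -0.46 to -0.04. This interval was looked at after the values of its receptor genes were known.

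The genes whose mean-centred log2 CPM lay closest to each receptor over the 6 mice were listed as a description. For *Fcgr2b* these were *Ly86*, *Csf3r* and *Fcer1g*, with root mean square differences of 0.146, 0.186 and 0.217, and for *Fcer1g* they were *Ly86* (0.156), *Fcgr2b* (0.217) and *Rasal3* (0.244). *Fcgr3* was closest to *Lag3* (0.133), *Apbb1ip* (0.158) and *Plau* (0.176), and *Fcrls* to *Mpeg1* (0.114), *Serpina3n* (0.144) and *Tyrobp* (0.147). The nearest genes of *Fcgr1* (*Nt5dc1*, *Zfp566* and *Gm14233*) and of *Fcgrt* (*Rfk*, *Sars* and *Cfap298*) had log2 fold changes between -0.03 and 0.02.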

How the data were processed

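RNA was sequenced from perfused cerebella of 3 mice per genotype. The authors enriched poly A RNA, sequenced paired reads, aligned trimmed reads to GRCm39 with STAR and counted Gencode features with featureCounts and StringTie; tool versions, strand setting and treatment of multi-mapping reads are not given in the sources used here. The deposited raw counts cover 53746 genes. The deposited FPKM values, made by the authors in a separate table, do not follow from these counts by a fixed gene length, and were used for levels between genes. Testing used edgeR 4.0.16 under R 4.3.3, with its filterByExpr function, TMM scaling and quasi-likelihood test. DESeq2 1.42.0 and limma 3.58.1 gave alternatives. CPM used TMM library sizes, and log2 CPM a prior count of 2. The 7 receptor genes, the pathway and marker lists, the motifs and the tests were chosen with earlier results of these data known. The text names all receptor genes and, of each list, called genes, extremes and the best known, and the 3 nearest patterns among tested genes with a mean of at least 1 CPM. Positions and upstream sequences came from Gencode M39 and the GRCm39 genome. Alternatives were other tests, scalings, filters, covariates, FPKM fits and each mouse left out. Scripts were tested on simulated counts. Within each genotype no library was a copy of another, since the chi-square per gene between its mice was 1.35 to 3.39. Pairs across the genotypes were not checked in this way. The value of 1 listed marker gene is not reported here.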

Additional observations from a re-analysis of the deposited data

How the results depend on the processing

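The 4 called receptor genes stayed called in every alternative in which they were tested, with adjusted p-values of at most 0.0461 for *Fcgr2b*, 0.00414 for *Fcgr3*, 0.0432 for *Fcer1g* and 0.00224 for *Fcrls*. With at least 10 counts in every mouse, 3 were called, since *Fcgr3* had 9 counts in control mouse 2 and was not tested. The number called was 4 with each mouse left out. The replicate number was tried as a replicate block: 4 receptor genes were called, and it changed no call of a receptor gene. Deviations of same-numbered mice correlated at 0.041, 0.056 and 0.166, and those of differently numbered mice at -0.111 to 0.073. The highest value was that of the mice numbered 3, the female of each genotype, where sex and pairing cannot be told apart. The numbers were not taken to pair the mice in the main fit. Pathway genes called, 13 in the report, were 4 with at least 10 counts in every mouse, 6 with limma on log2(FPKM + 1), 5 on log2(FPKM + 0.1) and 7 on log2(FPKM + 1) filtered at 0.1 FPKM in 3 mice, and 10 to 13 with a mouse left out. All genes called, 537, were 221, 287 and 345 in the same 3 FPKM fits, 1312 with no fold-change threshold, 236 with a log2 fold change of at least 1, and 426 to 632 with a mouse left out. The sign for genes near 0 was not stable. *Fcgrt* had a log2 fold change of 1.01e-05 by the likelihood ratio test, 0.00031 with at least 10 counts in every mouse, 0.0045 with sex as a covariate, 0.0014 in males, 0.041 on log2(FPKM + 1) with and without the filter, 0.044 on log2(FPKM + 0.1), and -0.051 to 0.045 with a mouse left out. *Fcgr1* was at 0.19 with a choroid plexus score as a covariate and at -0.23 to 0.11 with a mouse left out, above 0 without control mouse 2 or Pcp2-cre mouse 2. *Fcgr3* minus *Fcgr2b* was -0.063 on log2(FPKM + 0.1) and -0.038 to 0.56 with a mouse left out, and *Fcer1g* minus *Fcgr2b* -0.12 to 0.16. The cause of these shifts was not tested. Low counts limit the control values: *Fcgr3*, *Fcgr2b* and *Fcer1g* had 9 to 23 counts in each control mouse, and *Fcgr4* could not be compared at this depth.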
